A study of Homo sapiens with 6 samples.

Results

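A set of 10 peptidase genes was chosen by name from the deposited table that compares KLF5-silenced with control SKOV3 cells. The genes were MME, ECE1, ANPEP, ENPEP, LNPEP, ERAP1, ERAP2, FAP, DPP4 and CPM, and 8 of them had a row among the 29185 genes of the table. The choice was made with the difference between sh-KLF5 and sh-NC in view, in particular the loss of MME and the rise of FAP, so the values of these 10 genes in that comparison are given as a description. Standard errors are those of the limma fit described below, which moderates each gene's spread between libraries toward that of genes of similar level. They can thus be smaller or larger than the gene's own spread. No p-value is given for these genes, and nothing rests on whether they pass the threshold used for other genes. DPP4 and ENPEP had no row and were not analysed here. The smallest total of a row over the 6 libraries was 2 reads.

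SKOV3 is a long-established line of human ovarian carcinoma cells. Polyadenylated RNA was sequenced from SKOV3 cells stably carrying a short hairpin RNA against KLF5 in the vector pLKO.1-EGFP-Puro (sh-KLF5, 3 libraries) and from SKOV3 cells with the control hairpin (sh-NC, 3 libraries). All cells were puromycin-selected lines, the sample labels give the control genotype as WT where the study calls it sh-NC, and the study speaks of independent repetitions for its data in general, while neither the labels nor its sequencing methods name the cultures behind single libraries. The values are normalized counts, which are reads divided by 1 factor per library. Reads counted over the genes with a row summed to 15852319 to 17543896 per library, called the library total here. KLF5 itself fell from 4371, 4425 and 4494 normalized counts in sh-NC to 1745, 1440 and 1436 after silencing, which left 34.8% of the mean control level. Of 8 carcinoma markers of SKOV3, all were measured, with EPCAM at 92 to 143 reads in every library and a summed level of 3327 to 3944 RPM (reads scaled to the library total) in sh-NC and 1752 to 2310 RPM in sh-KLF5. Among these markers, KRT8 and MUC1 were called lower by the rule given below (25%) and none was called higher. Of all 15803 fitted genes, 3.37% were called lower and 1.9% higher. The log2 fold changes of the 8 markers ran from -1.20 to 1.14, and the marker with the highest one was not called.

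Membrane peptidases cut peptide hormones, growth factors and chemokines outside the cell and so set how long these signals last. The products may be inactive, or may act on another receptor. MME (neprilysin, CD10) and ECE1 (endothelin-converting enzyme) are zinc endopeptidases of the same family. ANPEP (CD13), ENPEP and LNPEP are zinc aminopeptidases that remove residues from the amino end, and ERAP1 and ERAP2 are their relatives in the endoplasmic reticulum, where they trim peptides for MHC class I rather than act at the cell surface. FAP, known as a marker of activated fibroblasts in tumour stroma, and DPP4 (CD26) are serine peptidases that cut after proline. CPM is a membrane-anchored carboxypeptidase that removes a basic residue from the carboxyl end.

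The catalytic sites show which members belong together, and are printed from the reference transcripts of GENCODE release 29 on GRCh38, 5′ to 3′ on the coding strand. In the zinc enzymes, capitals mark the codons of the 2 zinc-binding histidines and of the catalytic glutamate. In FAP and DPP4, capitals mark the codon of the catalytic serine.
MME: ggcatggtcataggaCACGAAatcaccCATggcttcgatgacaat
ECE1: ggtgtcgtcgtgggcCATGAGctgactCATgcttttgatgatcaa
LNPEP: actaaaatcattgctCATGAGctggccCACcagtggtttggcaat
ERAP1: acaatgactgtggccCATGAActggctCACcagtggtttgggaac
ERAP2: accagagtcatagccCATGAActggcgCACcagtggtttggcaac
FAP: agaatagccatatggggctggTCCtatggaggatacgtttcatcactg
DPP4: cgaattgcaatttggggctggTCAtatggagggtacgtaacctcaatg

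The MME site lies in exon 17 of MME-216 at chr3:155166976-155167020 on the + strand, from codon 584 of 750 for its first capital, and the ECE1 site lies in exon 16 of ECE1-214 at chr1:21227160-21227204 on the − strand. The printed windows were aligned on the codons of the zinc or serine site, so part of each match given here follows from that. Of 45 bases, 28 (62.2%) were the same in MME and ECE1. The 5 aminopeptidases, with ANPEP and ENPEP included, matched each other at 31 to 37 bases and matched MME or ECE1 at 19 to 24 bases. Each aminopeptidase also had a further glutamate codon, which lay beyond the printed bases and had 18 codons between it and the last capital, a spacing that MME and ECE1 lacked. The FAP site (FAP-201, from chr2:162174940-162183434 with an intron between, − strand) shared 38 of 48 bases (79.2%) with the DPP4 site, and both genes lie on chromosome 2 with 96.142 kb between them. Among 19515 protein-coding genes, 3.53% (689 genes) held the zinc codon pattern and 0.205% (40 genes) held it with the further glutamate codon. The serine pattern was held by 0.0205% (4 genes). No pattern thus marks a single gene, and the zinc codon pattern alone, held by 689 genes, does not place a gene in a family.

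The 8 genes with a row differed in direction. MME was lower and FAP was higher in sh-KLF5, ANPEP was near 0 in both groups, and ECE1, LNPEP, ERAP1, ERAP2 and CPM had log2 fold changes from -0.16 to 0.38. Elsewhere a gene was called where its adjusted p was under 0.05 and its log2 fold change lay outside -1 to 1. This threshold was met by 1.9% of all 15803 fitted genes as higher and by 3.37% as lower. Of the 7 members with enough reads to be fitted, FAP (1 higher) and MME (1 lower) lay beyond it and 5 did not, which follows from how the list was chosen and is no result about it. The median log2 fold change was 0.24 over the 7 members and -0.0023 over all fitted genes.

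**Figure D1:**
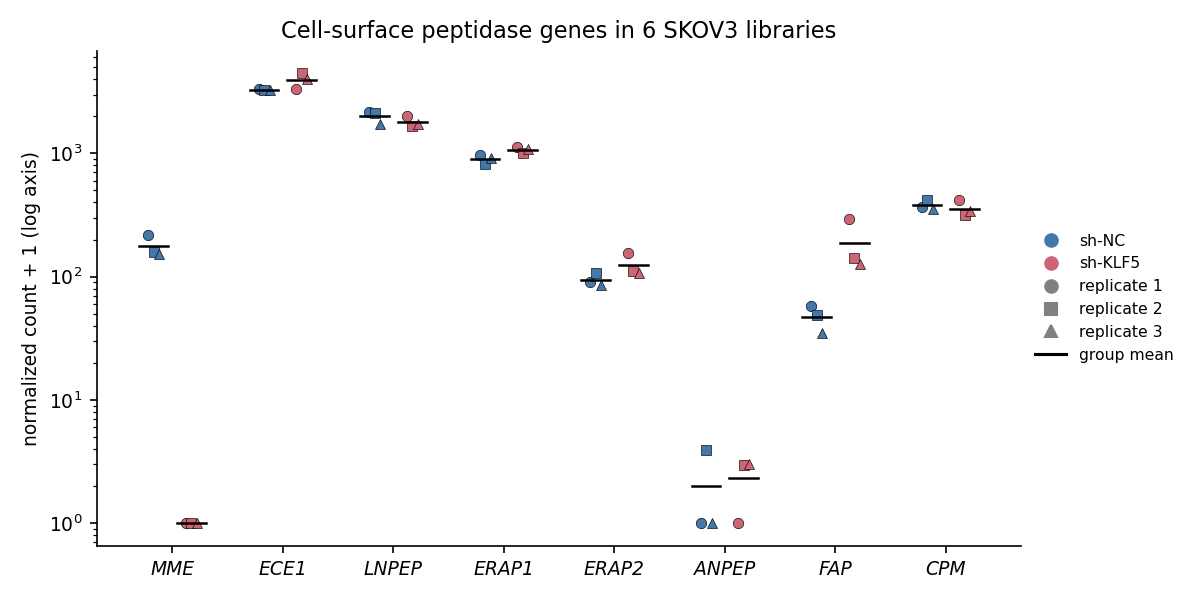
Normalized counts plus 1 (log axis) of the 8 listed peptidase genes with a row in the table, with 1 point per library, the shape of the point giving the replicate number and a black line at the group mean. MME falls from 151 to 215 normalized counts in sh-NC to 0 in every sh-KLF5 library, and FAP rises from at most 56.8 in sh-NC to at least 125 in sh-KLF5.

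MME (ENSG00000196549, chr3:155024124-155183729, + strand) degrades enkephalins, substance P, bradykinin, natriuretic peptides and other short peptides. The control libraries held 231, 161 and 142 reads of MME, against 0, 0 and 0 reads after silencing. The groups did not overlap, and MME was the one member with no read in a whole group. The normalized counts were 215, 159 and 151 in sh-NC (175 ± 35.1, SD, n = 3). With the 3 reads that a count of 0 allows in each sh-KLF5 library, MME was at least 58.4-fold lower in sh-KLF5, a bound that covers counting error only. These libraries come from bulk RNA, in which fewer cells that express a gene and less RNA per cell cannot be told apart. The fitted log2 fold change was -7.44, but depended on the constant added before the logarithm and ran from -10.75 to -5.15 over the settings tried. The antisense gene MME-AS1 shares 2.22% of the exonic bases of MME and had no row.

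ECE1 (chr1:21217247-21345572, − strand), which releases endothelin from its precursor, is the relative of MME in the list and kept a high level in both groups. The normalized counts of ECE1 were 3350, 3249 and 3251 in sh-NC and 3319, 4464 and 4004 in sh-KLF5. The control libraries lay close together, with a coefficient of variation of 1.76%, whereas the sh-KLF5 libraries varied by 14.7%, and library 1 of sh-KLF5 stood within the control range. The means were 3283 ± 57.8 and 3929 ± 577 (SD, n = 3 each). The log2 fold change was 0.25 (SE 0.12).

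FAP (ENSG00000078098, chr2:162170684-162245151, − strand) was the member that rose. It had 61, 49 and 32 reads in sh-NC, against 285, 145 and 125 reads in sh-KLF5. Every sh-KLF5 library was above every sh-NC library, and library 1 of sh-KLF5 stood well above the other 2. The normalized counts were 56.8, 48.3 and 34.0 in sh-NC (46.3 ± 11.5, SD, n = 3) and 290.5, 141 and 125 in sh-KLF5 (185.5 ± 91.2). This was a 4.0-fold difference of the means, and a log2 fold change of 1.90 (SE 0.29). Without library 1 of sh-KLF5 the log2 fold change was 1.53, and with any other library left out it lay between 1.70 and 2.13. The antisense gene AC007750.1 shares 638 exonic bases (9.11%) with FAP and had 0, 1 and 0 reads in sh-NC, against 12, 5 and 1 in sh-KLF5. Whether reads were counted by strand is not given in the sources used here, and the highest of these values, 12 reads, stood beside 285 reads of FAP in the same library.

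Because FAP is known from fibroblasts, its values were set beside 10 fibroblast markers, all of which had a row. Of the 8 fitted, none was called higher, 5 were called lower (COL1A2, COL3A1, PDGFRA, DCN and THY1) and 3 were not called (COL1A1, LUM and PDPN). The calls were 0% higher and 62.5% lower, where all fitted genes had 1.9% and 3.37%. The summed level of the markers was 71.1 to 105.8 RPM in sh-NC and 24.8 to 48.8 in sh-KLF5, so the sum was lower where FAP was higher. The markers did not all go one way, since COL1A1 had a log2 fold change of 0.30 and PDPN one of 0.63, with groups that overlapped. COL3A1, a collagen of the stroma, fell from 505 ± 50.6 to 146 ± 12.3 normalized counts (log2 fold change -1.78, limma, Benjamini-Hochberg adjusted p = 5.67e-07). PDGFRA, a receptor of fibroblasts, had 0, 0 and 2 reads in sh-KLF5, and THY1 had 0, 1 and 1. PDGFRA and THY1 had enough reads to be fitted only through their sh-NC libraries, and their place among the 5 called lower depended on that. Of the 10 leukocyte markers 7 had a row, with PTPRC at no more than 1 read in any library. Of the 8 endothelial markers 7 had a row, and CDH5 had at most 3 reads. Of these markers, the 1 fitted leukocyte gene was not called, and of the 3 fitted endothelial genes TEK was called higher (log2 fold change 2.11, limma, adjusted p = 0.0442). The part of other cell types in the FAP result was not tested. The leukocyte sum was 9.96 to 14 RPM in sh-NC and 11.8 to 24.4 in sh-KLF5, and the endothelial sum was 7.70 to 8.51 and 4.92 to 9.40.

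**Figure D2:**
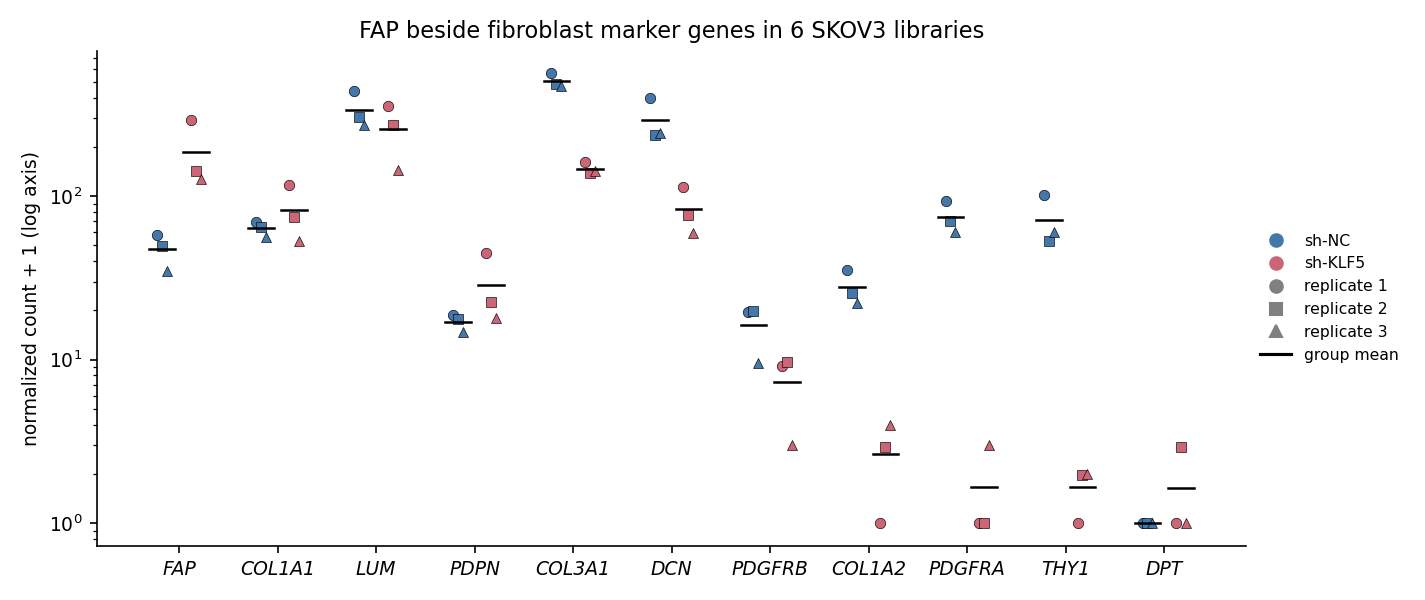
Normalized counts plus 1 (log axis) of FAP and 10 fibroblast marker genes, with 1 point per library and a black line at the group mean. FAP is higher in every sh-KLF5 library, while COL3A1, DCN, COL1A2, PDGFRA and THY1 are lower and DPT is near 0 in both groups.

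ANPEP (chr15:89784889-89815401, − strand), an aminopeptidase and a myeloid surface antigen, was barely detected. It had 0, 3 and 0 reads in sh-NC, against 0, 2 and 2 reads in sh-KLF5. No library exceeded the 3 reads that a count of 0 allows, which at these depths is 0.171 to 0.189 RPM, and a difference was not detectable at this depth.

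LNPEP, ERAP1 and ERAP2 lie together on chromosome 5, with 67.839 kb between ERAP1 and ERAP2 and 15.678 kb between ERAP2 and LNPEP. LNPEP (chr5:96935394-97037515, + strand), which cleaves oxytocin and vasopressin, had 2178, 2112 and 1728 normalized counts in sh-NC, against 2011, 1665 and 1719 in sh-KLF5. The groups overlapped, and the log2 fold change was -0.16 (SE 0.13). ERAP1 (chr5:96760810-96808100, − strand) had 974, 820 and 918 normalized counts in sh-NC, against 1116, 1012 and 1074 in sh-KLF5. The groups of ERAP1 did not overlap, but the difference was small, with a log2 fold change of 0.24 (SE 0.12). ERAP2 (chr5:96875939-96919716, + strand) had 89.4, 106 and 84.9 normalized counts in sh-NC, against 155, 111 and 105 in sh-KLF5. Its groups overlapped, and the log2 fold change of 0.38 (SE 0.21) went down to 0.21 without library 1 of sh-KLF5. The members FAP, ERAP1 and MME had groups that did not overlap, 2 of them higher and 1 lower, where 15.4% and 15.9% of all fitted genes were separated in these directions.

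CPM (chr12:68842197-68971570, − strand) had 366, 415 and 352 normalized counts in sh-NC, against 416, 312 and 337 in sh-KLF5. The groups overlapped, and the log2 fold change was -0.096 (SE 0.15). CPM shares 133 exonic bases (1.77%) with MDM2 on the other strand, which had 1518 to 2550 reads in the libraries. ERAP1 shares 3.76% of its exonic bases with CAST on the other strand, which had 4170 to 5345 reads. Reads from such shared bases cannot be told apart without strand.

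The levels of different genes can be compared once reads are divided by exonic length, as RPM per kilobase of exon (RPKM). In sh-NC the order was ECE1 at 27.2 RPKM, LNPEP at 7.98, ERAP1 at 6.90, CPM at 3.04, MME at 1.10, ERAP2 at 0.765 and FAP at 0.402, with ANPEP at 0.0124. Only LNPEP and ERAP1 overlapped as neighbours in this order. In sh-KLF5 the order was ECE1 at 32.7 RPKM, ERAP1 at 8.19, LNPEP at 7.18, CPM at 2.87, FAP at 1.62 and ERAP2 at 1.02, with ANPEP at 0.0164 and MME at 0. Thus MME stood above FAP in the control libraries and below it after silencing, and in sh-KLF5 the neighbours ERAP1 and LNPEP, FAP and ERAP2, and ANPEP and MME overlapped. ECE1 and LNPEP together held 72.9% to 79.5% of the members' reads in each library, so most of the members' reads came from genes other than MME and FAP.

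In sh-KLF5, library 1 had the highest normalized count of its group for FAP, LNPEP, ERAP1, ERAP2 and CPM and the lowest for ECE1. The libraries of a group thus did not differ by 1 common factor over these genes.

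A list of 51 other peptidase genes gave the background of the enzyme class. Of these, 41 had a row and 29 were fitted, with 2 called higher, 1 called lower and 26 not called, and a median log2 fold change of 0.036. The calls were 6.90% higher and 3.45% lower, where all fitted genes had 1.9% and 3.37%. CPA4, a secreted carboxypeptidase, had 263, 217 and 161 normalized counts in sh-NC, against 1025, 1021 and 1551 in sh-KLF5. All its sh-KLF5 libraries were far above the control libraries, with a log2 fold change of 2.48 (SE 0.19, limma, adjusted p = 2.46e-07). CPQ, a carboxypeptidase of plasma and lysosomes, rose from 44.1 ± 6.09 to 89.3 ± 8.30 normalized counts (log2 fold change 1.01, limma, adjusted p = 0.00741), just past the fold threshold, and fell below it without sh-NC library 1 (0.89), sh-KLF5 library 2 (0.94) or sh-KLF5 library 3 (0.996). GGT1, a membrane enzyme that breaks down glutathione, fell from 45.0 ± 14.9 to 10.2 ± 4.22 normalized counts (log2 fold change -2.05, limma, adjusted p = 0.00232). GGT1, the 1 gene of this list called lower, had enough reads to be fitted only through its sh-NC libraries.

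The 3 genes with the highest level among those not called were CPE, CPD and RNPEP. CPD, a carboxypeptidase of the trans-Golgi, had 5517 ± 265 normalized counts in sh-NC, against 3498 ± 408 in sh-KLF5, and its log2 fold change of -0.66 (limma, adjusted p = 0.00104) stayed short of the fold threshold. CPE, which processes prohormones, had a log2 fold change of 0.35 (limma, adjusted p = 0.137). RNPEP, an aminopeptidase B of the same family as ANPEP, had one of -0.053 (limma, adjusted p = 0.81).

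**Figure D3:**
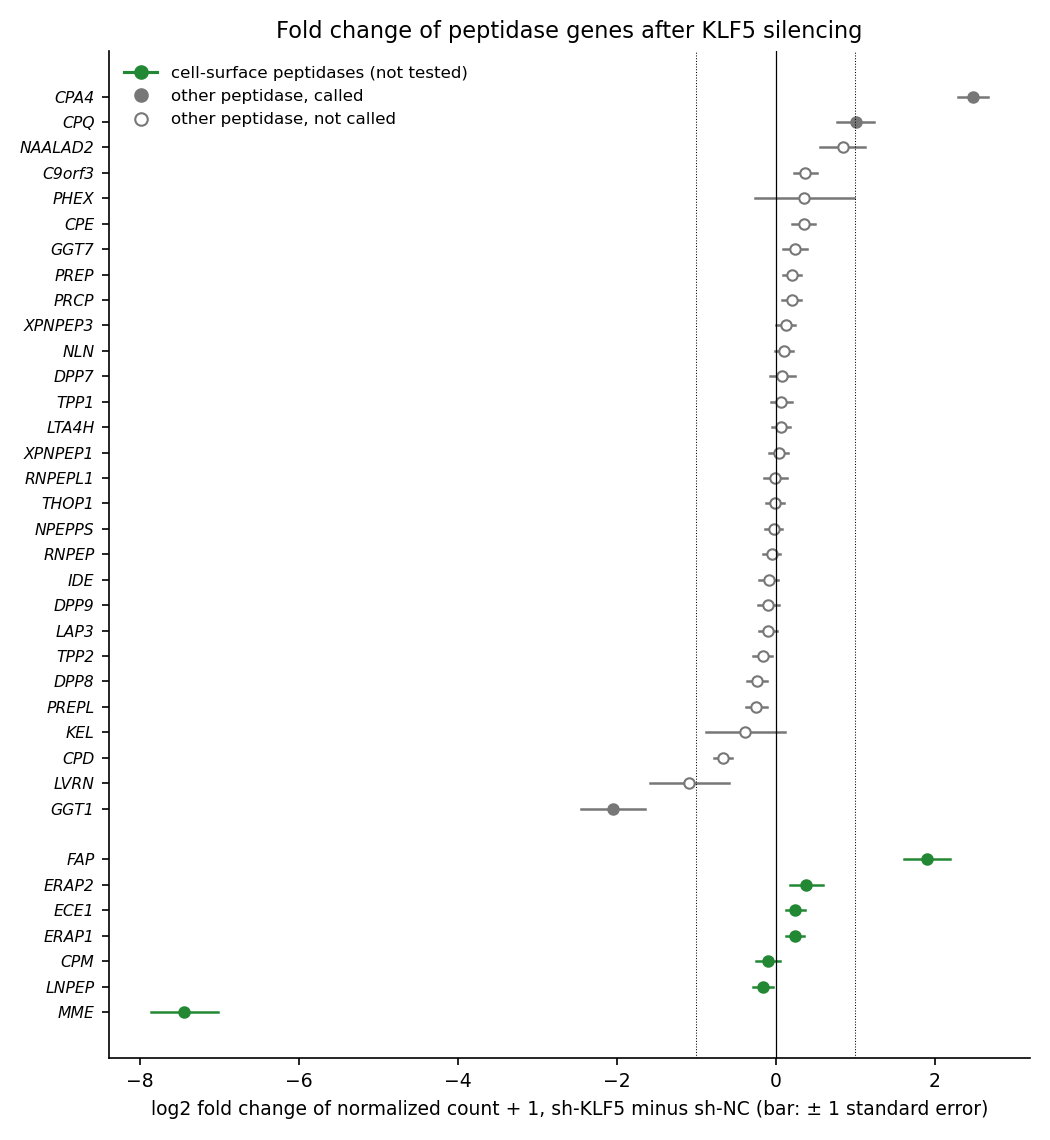
Log2 fold change of normalized count plus 1 (sh-KLF5 minus sh-NC) for the 7 fitted members of the list (green, chosen on this comparison) and the 29 other fitted peptidases (grey). Bars give 1 moderated standard error of the limma fit to each side, and dotted lines lie at -1 and 1. Grey points are filled for called genes and open for the others, and green points carry no test. MME at -7.44 and FAP at 1.90 lie outside the dotted lines, as do CPA4 at 2.48 and GGT1 at -2.05, and CPQ at 1.01 is on the line; LVRN at -1.09 lies beyond it and was not called.

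The peptides that these enzymes cut, and the receptors of those peptides, were taken as a list of 59 genes. Of these, 39 had a row and 20 were fitted, with 2 called higher, 4 called lower and 14 not called, and a median log2 fold change of 0.012. The calls were 10% higher and 20% lower, where all fitted genes had 1.9% and 3.37%. Both genes called higher were bradykinin receptors, whose ligand is a substrate of MME. BDKRB1, which binds the form of bradykinin that carboxypeptidases such as CPM produce, had 11.2, 12.8 and 6.37 normalized counts in sh-NC, against 56.1, 55.3 and 57.2 in sh-KLF5 (log2 fold change 2.41, SE 0.35, limma, adjusted p = 1.55e-04). BDKRB2, the receptor of intact bradykinin, had 7, 2 and 4 reads in sh-NC, against 47, 34 and 26 in sh-KLF5 (log2 fold change 2.86, SE 0.47, limma, adjusted p = 5.72e-04). For both receptors the groups lay clearly apart, and both had enough reads to be fitted only through their sh-KLF5 libraries.

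The 4 genes called lower were EDNRB, CALCRL, VIP and ACKR3. EDNRB, a receptor of the endothelins that ECE1 releases, had 493, 611 and 519 normalized counts in sh-NC, against 333, 217 and 227 in sh-KLF5 (log2 fold change -1.08, limma, adjusted p = 3.14e-04), and its log2 fold change was -0.998 to -0.968 when sh-NC library 2, sh-KLF5 library 2 or sh-KLF5 library 3 was left out. CALCRL, part of the receptors for adrenomedullin and CGRP, had 38, 28 and 27 reads in sh-NC, against 2, 1 and 4 in sh-KLF5 (limma, adjusted p = 2.81e-04). VIP, a neuropeptide, had 13, 25 and 11 reads in sh-NC and 1 read in each sh-KLF5 library (limma, adjusted p = 0.00306), and was no longer called without sh-NC library 2. CALCRL and VIP had enough reads to be fitted only through their sh-NC libraries. ACKR3, a scavenging receptor of CXCL12, which is a substrate of DPP4, fell from 119 ± 5.24 to 46.3 ± 7.74 normalized counts (log2 fold change -1.36, limma, adjusted p = 4.49e-04).

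The other endothelin receptor gene, EDNRA, had 14, 8 and 12 reads in sh-NC and none in sh-KLF5. It was named after its values were seen, had too few reads to be fitted with the filter and was at least 3.75-fold lower against 3 reads per library. Of the genes not called, those with the highest level were CCL5, ATP6AP2 and ADM. ADM, the precursor of adrenomedullin, had 599 ± 91.2 normalized counts in sh-NC, against 1084 ± 173 in sh-KLF5, with a log2 fold change of 0.85 under the fold threshold (limma, adjusted p = 6.99e-04). CCL5, a chemokine that DPP4 trims, had a log2 fold change of -0.40 (limma, adjusted p = 0.0351), and ATP6AP2, the prorenin receptor, had one of 0.30 (limma, adjusted p = 0.259).

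**Figure D4:**
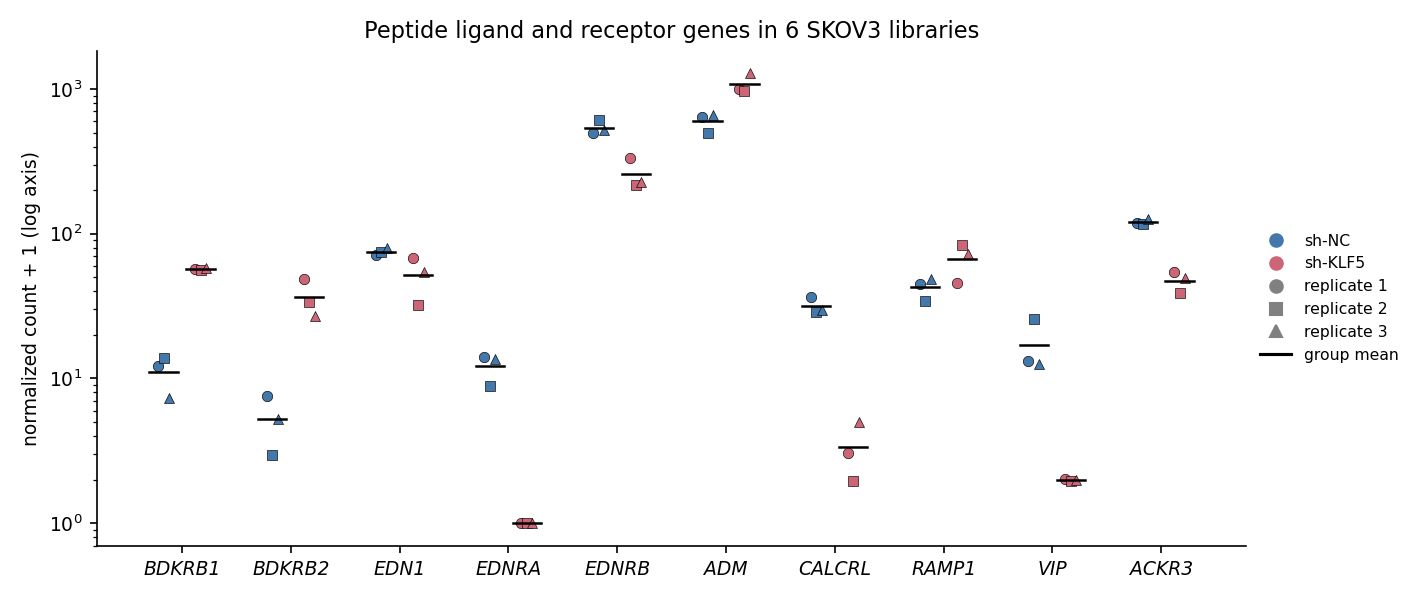
Normalized counts plus 1 (log axis) of 10 peptide ligand and receptor genes, with 1 point per library and a black line at the group mean. BDKRB1 and BDKRB2 are higher in every sh-KLF5 library, EDNRB, CALCRL, VIP and ACKR3 are lower, and EDNRA has no read in sh-KLF5.

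Genes within 500 kb of the members were examined for changes beside them. The 1 gene of the table near MME was PLCH1, a phospholipase C gene 191.851 kb away at chr3:155375580-155745067 on the − strand. It had 40, 36 and 26 reads in sh-NC, against 0, 1 and 2 in sh-KLF5 (limma, adjusted p = 8.38e-05), so it was lower together with MME. PLCH1 had enough reads to be fitted only through its sh-NC libraries. Near FAP and DPP4, 7 genes had a row, 3 were fitted and none was called. Around LNPEP, ERAP1 and ERAP2, 12 genes had a row, 4 were fitted and none was called. Near ANPEP, 41 genes had a row and 21 were fitted, of which MESP1 was called higher with 44, 22 and 22 reads in sh-NC and 62, 57 and 53 in sh-KLF5 (log2 fold change 1.03, limma, adjusted p = 0.0313), a call that was lost under 9 of the 15 other settings.

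The genes whose pattern over the 6 libraries was most like that of MME were LHX8, POSTN, CUBN, NAP1L3 and MAB21L1. Likeness was the Euclidean distance of log2(normalized count + 1) after each gene's mean was subtracted, which was 1.86 for LHX8, 1.90 for POSTN and at most 2.11 for the others, where the median over all fitted genes was 9.13. POSTN, a matrix protein, had 1049, 671 and 536 reads in sh-NC, against 12, 5 and 13 in sh-KLF5. CUBN, an endocytic receptor, had 131, 92 and 87 reads in sh-NC, against 1, 1 and 0 in sh-KLF5, and NAP1L3 had 1 read in all of sh-KLF5. The genes most like FAP were PALM2, TLR4, F2R, MIR222HG and IL33, at distances of 0.55 to 0.64 where the median was 2.62. TLR4, a receptor of innate immunity, had 218, 206 and 190 normalized counts in sh-NC, against 972, 686 and 546 in sh-KLF5, and F2R, a thrombin receptor, had 246, 261 and 198 and then 992, 661 and 627. As in FAP, library 1 of sh-KLF5 was the highest of its group in both. The like genes of MME and FAP were chosen over these same 6 libraries, so their shared pattern and short distances follow from the choice.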

How the data were processed

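RNA from 6 SKOV3 libraries was analysed, 3 sh-NC and 3 sh-KLF5, grouped by the sample titles. The submitters' processing notes name HISAT2 2.0.5, featureCounts 1.5.0-p3, DESeq2 1.20.0 and the build hg38, and the strand setting is not given in the sources used here. The authors deposited a normalized signal per gene and library, which is reads divided by 1 factor per library. The authors also deposited columns of group means, log2 fold changes and p-values of their own comparison, which were not used. Reads were recovered by dividing by the step of each library, and 100% of the values were whole within 0.01. Depth was 15852319 to 17543896 reads counted over the genes with a row, and 3 reads correspond to 0.171 to 0.189 RPM (reads scaled to that total). Intervals and floors cover counting error or the spread between these libraries only.

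No p-value is given for the members. The groups were compared with limma 3.58.1 (trend, robust) in R 4.3.3 on log2(normalized count + 1), for the 15803 genes that passed edgeR's filterByExpr (minimum count 10 in the recovered reads), with Benjamini-Hochberg adjustment over all of them. On this log2 scale, changes of weakly expressed genes come out too small. Calls needed an adjusted p under 0.05 together with a log2 fold change outside -1 to 1. The script was tested on simulated data. Alternatives were edgeR 4.0.16 and DESeq2 1.42.0 on the recovered reads, other scalings, pseudocounts (0.1 and 5) and filters, the replicate block and leaving out each library. Plots used Python 3.11.15 and matplotlib 3.10.9.

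The members, the lists and the tests were chosen with earlier results of these data known. The genes named were the members, KLF5, called genes of the other peptidase and of the ligand and receptor lists with the 3 highest genes not called in each, called or overlapping genes within 500 kb of the members, the 5 genes most like MME and FAP, and marker genes. For ANPEP, also named in that rule, no like genes were sought because no library held over 3 of its reads. The study describes its data in general as independent repetitions, and the cultures behind single libraries are not named in the labels, so p-values measure the spread between these libraries, which may in part be technical.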

Additional observations from a re-analysis of the deposited data

How the results depend on the processing

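The calls of MME and FAP follow from how the members were chosen and say nothing about stability. Where every library had to hold 10 reads or more, 0 members were called lower because MME was no longer fitted. That filter also left 231 genes called lower in all, 0 other peptidases called lower, and 0 higher and 2 lower among the ligands and receptors, since genes with few reads in a group drop out. BDKRB1, BDKRB2, CALCRL, VIP, GGT1 and PLCH1 were not fitted under it. Without a filter, 811 genes were called lower in all and 3 other peptidases. Without the fold threshold, 955 genes were called higher, 1083 lower and 2 other peptidases lower. With a pseudocount of 5, 1 other peptidase was called higher. When single libraries were left out, the other peptidases called ranged from 1 to 2 higher and from 1 to 2 lower, and the ligands and receptors called lower from 3 to 6, against 4 with all libraries. edgeR, with either scaling, and DESeq2 called 5 of them lower, with NPR2 added (log2 fold change -1.02 in each, adjusted p 0.039 to 0.043), where limma gave -0.96 and an adjusted p of 0.051. The fit with the replicate block called 327 genes higher and 567 lower and the same numbers of members, 1 and 1. The labels do not say that a number marks a shared culture. The deviations of same-numbered libraries from their group means correlated at 0.062, 0.023 and 0.059. On this measure each sh-NC library correlated best with the sh-KLF5 library of its own number. Of the named genes outside the list, 12 values with a library left out and 5 values under other settings lost their call (CPQ, EDNRB, VIP and MESP1), and none changed direction. Depth limited ANPEP, and the fold of MME is a bound.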
